A study of Mus musculus with 2 samples.

Results

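The late-numbered Mir genes are the mouse microRNA genes whose symbol carries a number of 1000 or more. They were chosen by the gene name in GENCODE release M21 (build mm10), with 1 gene of that range left out by the rule, and made up 648 of the 2202 microRNA genes in the count tables. The numbers of these genes ran to 8120. Their levels were read in heart tissue of adult female mice of the strain label 5xFAD/CAST, aged 8 to 10 months, in 1 group of 2 libraries labelled as biological replicates 1 and 2. All samples share the 5xFAD/CAST background, 5xFAD being a transgenic model of Alzheimer disease and CAST an inbred strain of wild origin, and no group without it was analysed here. The labels give both libraries an upper size limit of 30, read here as bases of RNA. The donor identifier in the labels is shared by both libraries. Technical spread and spread between animals therefore cannot be told apart here, and differences between the libraries describe these samples only.

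MicroRNAs are short RNAs, cut from a hairpin precursor by Drosha with its partner Dgcr8 and then by Dicer, that guide Argonaute proteins to messenger RNAs mainly through the seed, bases 2 to 8 of the mature strand. Numbers are given in the order in which genes are registered, so the late ones mostly came from deep sequencing and not from early cloning. Some hairpins are mirtrons, short introns whose ends are made by splicing in place of Drosha, and a tailed mirtron has only 1 end at a splice site. Other hairpins lie inside small nucleolar or Cajal body RNAs, which guide the chemical modification of ribosomal and spliceosomal RNA.

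The sequences that follow are those of the most abundant late-numbered genes, since these carry most of the signal described below. They come from the RefSeq table of build GRCm38.p6, are written 5′ to 3′, and have the seed in capitals. Of the 648 genes, 597 matched that table by symbol and 586 had a mature sequence in it, as 921 mature strands with 832 different seeds.
miR-1839-5p: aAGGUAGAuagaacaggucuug
miR-3102-5p: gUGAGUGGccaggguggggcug
miR-3102-3p: gAGCACCCcauuggcuacccaca
miR-1843a-5p: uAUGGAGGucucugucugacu
miR-1843b-5p: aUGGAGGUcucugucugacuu
miR-1306-5p: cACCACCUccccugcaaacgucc
miR-1306-3p: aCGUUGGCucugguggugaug
miR-1249-3p: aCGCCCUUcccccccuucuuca
miR-1981-5p: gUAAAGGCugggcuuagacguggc
miR-1981-3p: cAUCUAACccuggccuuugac
miR-1198-5p: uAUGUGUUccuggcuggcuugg
miR-6236: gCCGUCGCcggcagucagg
The counts are per gene, so reads of the 5′ and 3′ strands of a hairpin were not separated. Mir5099, also among the 10 highest, had no mature entry. Mir1843a, Mir1843b and Mir1198 also have a registered 3′ strand, which is not printed here. The 5′ mature strands of Mir1843a and Mir1843b are registered with a start that differs by 1 base, which gives them different seeds. The sequence of miR-1843b-5p is also present in the Mir1843a precursor, and reads that fitted several places were assigned to no gene, so the counts of this pair hold unique reads only.

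Most late-numbered genes were near or below the limit of these libraries. At 1 CPM (counts scaled to 1000000 counts assigned to microRNA genes) or more in both libraries, 89 of 648 genes were detected, or 13.7%, against a background of 17.3% over all 2202 genes. Mir genes numbered below 1000 were detected in 263 of 514 cases, or 51.2%, and genes with other symbols in 27 of 1039. These shares are descriptions, because genes are not replicates. A further 59 late-numbered genes reached 1 CPM in a single library. No count was found in either library for 333 of them, which at this depth allows up to 0.717 CPM in replicate 1 and 1.04 CPM in replicate 2 for each (3 counts of 4186560 and of 2877511 assigned counts, counting error only).

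Detection varied with the number. Of the 85 genes in the 1000s, 23 were detected (27.1%), of the 89 in the 3000s, 17 (19.1%), and of the 51 in the 5000s, 14 (27.5%). The 6000s and 7000s held most of the genes, and 14 of 207 (6.76%) and 16 of 180 (8.89%) were detected there. From 8000 on it was 5 of 32 (15.6%), and none of the 4 genes in the 2000s was detected. The fall did not begin at 1000: 16 of 71 genes numbered 600 to 699 were detected (22.5%), as were 7 of 31 in the 700s and 3 of 17 in the 800s, against 51 of 67 genes numbered below 100. On either side of the limit that defines the late-numbered genes, Mir1187 and Mir1188 as well as Mir883a and Mir883b had 0 counts in both libraries.

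**Figure D1:**
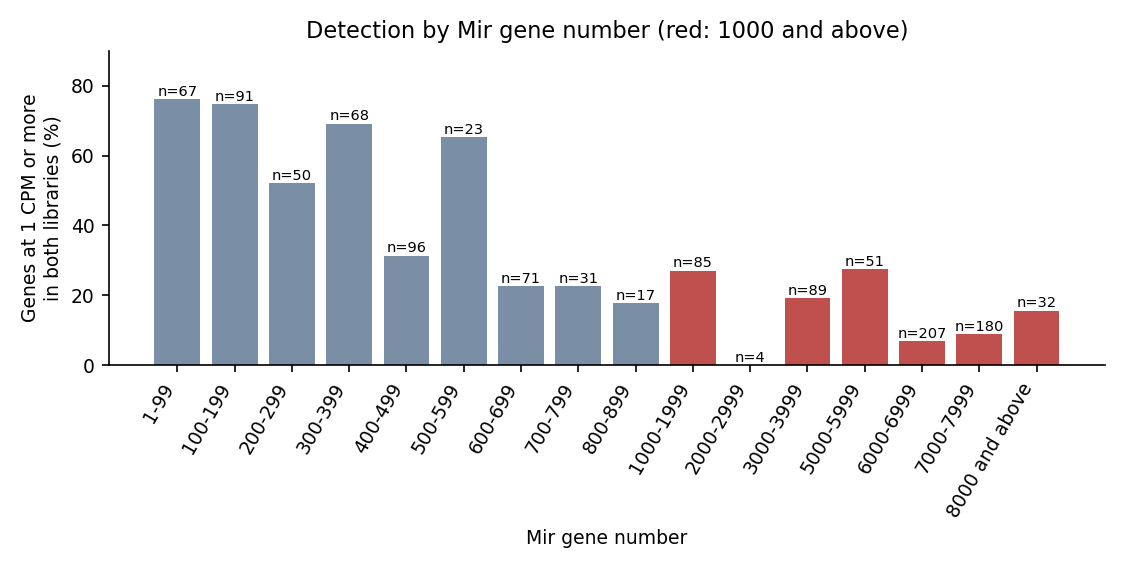
Percent of Mir genes at 1 CPM or more in both heart libraries, by gene number, with the number of genes above each bar (grey: below 1000, red: 1000 and above). Detection is 76.1% for numbers 1 to 99, 17.6% in the 800s, and between 0% and 27.5% in the bands from 1000 on.

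The late-numbered genes together held 0.208% of the assigned counts in replicate 1 (8700 counts, 95% binomial interval 0.203 to 0.212 by the Clopper-Pearson method) and 0.199% in replicate 2 (5727 counts, 0.194 to 0.204), a mean of 0.203% ± 0.00621 (SD, n = 2). The 2 intervals overlap only between 0.203 and 0.204. This overlap does not show that the shares are alike, and their difference was not tested. This small share was concentrated: the 5 highest genes supplied 54.7% of it in replicate 1 and 46.4% in replicate 2, and the 20 highest supplied 79.0% and 77.8%. Among the 89 detected genes, 4 had a mean of 100 CPM or more, 24 lay between 10 and 100 CPM and 61 below 10 CPM. Their median level was 4.65 CPM, against 70.0 CPM for the detected genes numbered below 1000.

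Heart tissue was checked through cell type markers among the other microRNA genes. The cardiomyocyte microRNAs Mir208a, Mir208b and Mir499 were all present and summed to 6466 CPM in replicate 1 and 4715 CPM in replicate 2. Each of them had a lower CPM in replicate 2. Markers of other cells also moved between the libraries. The 5 pluripotency genes (Mir302a to Mir302d and Mir367, the last at 0) summed to 10.0 and 425 CPM. The 2 erythroid genes summed to 755 and 230 CPM and the 4 leukocyte genes to 5369 and 7640 CPM. The 5 epithelial genes summed to 114 and 58.7 CPM, but did not all move alike (Mir200b 49.2 and 7.99, Mir200c 40.4 and 37.5, Mir141 2.15 and 2.78 CPM). The hepatocyte gene Mir122 stood at 19.1 and 57.3 CPM. The endothelial gene Mir126a stood at 174314 and 46780 CPM, and the 2 smooth muscle genes summed to 32911 and 56334 CPM. The part of these shifts in the differences given below for the late-numbered genes was not tested. In tissue, fewer cells of a type and less RNA per cell cannot be told apart.

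Mir1839 was the most abundant late-numbered gene and ranked 83 among all genes. It had 2239 counts (535 CPM) in replicate 1 and 965 counts (335 CPM) in replicate 2, a mean of 435 ± 141 CPM (SD, n = 2). It lies at chromosome 7, 81529916 to 81529988, plus strand, overlapping an exon of the noncoding gene 2900076A07Rik. The annotation also lists a small Cajal body RNA of the same symbol there. The libraries are labelled with an upper size limit of 30. The gene count alone cannot assign the reads to a microRNA or to pieces of a larger guide RNA. Mir1839 was lower in replicate 2 beyond counting error (log2 ratio -0.60, 95% interval -0.71 to -0.49, adjusted p = 5.44e-28, exact binomial test with Benjamini-Hochberg adjustment over 309 genes).

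Overlap with another annotated small RNA gene was rare among the late-numbered genes but held a large part of their counts. It was found for 11 of the 648 genes, all on the same strand, and 8 of the 11 were detected. Those 8 were Mir1839, Mir1843a (inside Scarna3b), Mir1843b (Scarna3a), Mir3068 and Mir1949 (each with a small nucleolar RNA of the same symbol), Mir5121 (Snord33), Mir6516 (the Cajal body RNA gene Gm26083) and Mir1291 (Snora34). The 11 genes supplied 42.0% of the counts of late-numbered genes in replicate 1 and 30.5% in replicate 2. Leaving them out, the remaining 637 genes held 0.129% ± 0.0126 of all assigned counts (SD, n = 2). Nuclear transfer RNA genes were not among the gene types searched, so overlap with them is not known. Only microRNA genes have rows in these tables, so reads from pieces of a longer guide RNA within a microRNA gene would be counted for that gene.

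The Mir1843 pair shows how alike some of these loci are. Mir1843a, in an intron of Dcaf5 (chromosome 12, 80391613 to 80391677, minus strand), had 648 and 402 counts, or 155 and 140 CPM. Mir1843b, in an intron of Cop1, a ubiquitin ligase (chromosome 1, 159340358 to 159340423, plus strand), had 431 and 239 counts, or 103 and 83.1 CPM. Mir1843a was the higher of the pair in both libraries, and neither gene differed between the libraries by the test (log2 ratios -0.08 and -0.24, adjusted p = 0.505 and 0.0677 in the exact binomial test), although Mir1843b passed with plain totals (adjusted p = 0.0128, and 0.00861 to 0.0520 over 5 alternatives of the exact binomial test). Mir3068, in an intron of the demethylase gene Alkbh1, had 172 and 64 counts (41.1 and 22.2 CPM), lower in replicate 2. Mir5121, at the ribosomal protein gene Rpl13a, had 87 and 23 counts (20.8 and 7.99 CPM), also lower.

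The second most abundant gene, Mir3102, is an intron in its whole length. It spans chromosome 7, 100882306 to 100882409, minus strand, and both of its ends coincide with the ends of an intron of Arhgef17. The stretch also overlaps an exon of an annotated Arhgef17 transcript that has no coding sequence there. Mir3102 had 795 counts (190 CPM) in replicate 1 and 712 (247 CPM) in replicate 2, a mean of 219 ± 40.7 CPM (SD, n = 2), and was higher in replicate 2 (log2 ratio 0.45, interval 0.31 to 0.60). Mir1981 is the other abundant gene of this kind. It fills an intron of Marc2, which encodes a mitochondrial amidoxime reductase (chromosome 1, 184822407 to 184822488, minus strand), and had 256 and 288 counts, or 61.1 and 100.1 CPM, also higher in replicate 2 (log2 ratio 0.78, interval 0.53 to 1.03). Their precursors, from the GENCODE transcripts of build mm10 and shown because they begin and end like introns, have the bases at the intron ends in capitals, as do 2 precursors with only their 3′ end at a splice site.
Mir3102: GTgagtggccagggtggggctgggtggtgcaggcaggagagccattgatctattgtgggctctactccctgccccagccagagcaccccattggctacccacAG
Mir1981: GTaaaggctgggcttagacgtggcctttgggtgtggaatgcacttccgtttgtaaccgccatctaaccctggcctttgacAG
Mir3100: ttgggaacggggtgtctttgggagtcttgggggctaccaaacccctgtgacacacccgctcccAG
Mir3097: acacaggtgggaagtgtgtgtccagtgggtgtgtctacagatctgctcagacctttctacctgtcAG
Mir3102 carries 4 registered mature strands, 2 of them nested between the outer pair, and the printed outer pair begins at the start of the intron and ends just before its last base.

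Position at a splice site was common among the late-numbered genes. A precursor end lay within 10 bases of an end of a host intron in 241 of 648 genes, against 7 of 514 genes numbered below 1000. In 210 of the 241 only the 3′ end did so, in 24 both ends and in 7 only the 5′ end. The distance was 0 bases at the 3′ end for 183 of the 210 and for 22 of the 24. The precursor ended in AG in 183 of the 210 (87.1%) and in 22 of the 24 (91.7%), against 25 of the 407 genes at no intron end (6.14%), and it began with GT in 18 of the 24. Of 218 genes with the 3′ end at an intron end and a RefSeq mature strand, 154 had a mature strand that ended exactly where the intron ends, and 195 had one within 2 bases. These positions describe the annotation and not the reads.

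Genes at intron ends were mostly found at very low levels. Of the 241, 27 were detected (11.2%), and of the other 407, 62 were (15.2%). The 6000s and 7000s held 214 of the 241, and there 17 of 214 genes at intron ends (7.94%) and 13 of 173 other genes (7.51%) were detected. From the 1000s to the 5000s it was 10 of 27 (37.0%) and 44 of 202 (21.8%). Of the 27 detected genes, 4 had a mean of 10 CPM or more, namely Mir3102, Mir1981, Mir5121 and Mir3100, and 23 lay below. Mir3100, at the 3′ end of an intron of Dmpk, the myotonic dystrophy protein kinase gene of striated muscle, had 45 and 42 counts (10.7 and 14.6 CPM). Mir3064, at an intron end of the RNA helicase gene Ddx5, had 39 and 27 counts (9.32 and 9.38 CPM). Neither gene passed the test between libraries. Host transcripts were not measured in these libraries.

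**Figure D2:**
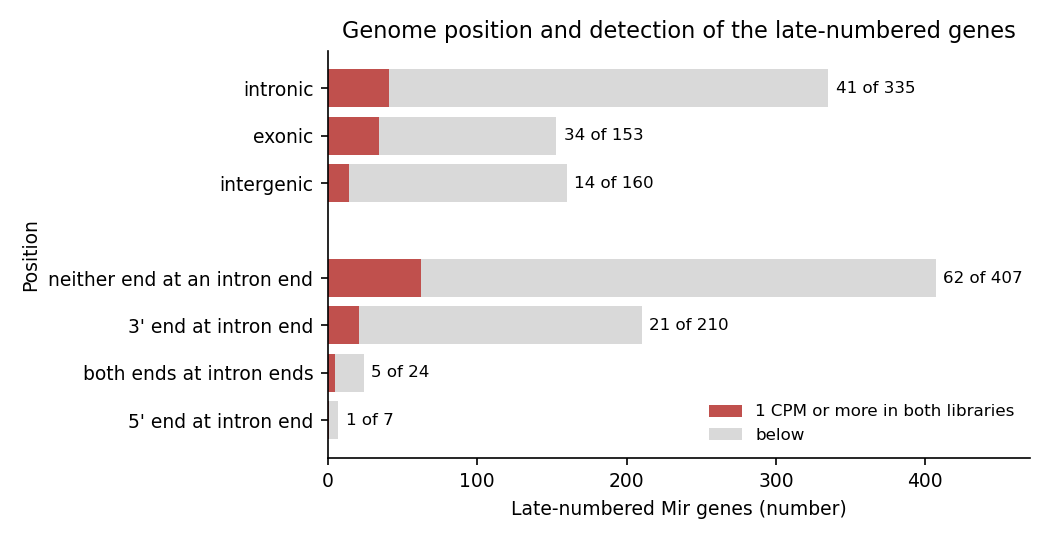
Number of late-numbered Mir genes by position relative to annotated genes (upper 3 bars) and to intron ends of the host (lower 4 bars), with the genes at 1 CPM or more in both libraries in red. Detected genes are 41 of 335 intronic, 34 of 153 exonic and 14 of 160 intergenic, and 21 of the 210 with only the 3′ end at an intron end.

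Most late-numbered genes lay inside another gene. A same-strand host held 488 of the 648 (335 in introns and 153 overlapping exons), spread over 473 hosts, and 160 were intergenic. Of the exonic genes, 34 of 153 were detected (22.2%), of the intronic ones 41 of 335 (12.2%) and of the intergenic ones 14 of 160 (8.75%). Among genes numbered below 1000 the shares were 53 of 83, 113 of 230 and 97 of 201 (63.9%, 49.1% and 48.3%). Of the exonic late-numbered genes, 61 overlapped coding sequence, 40 a UTR and 52 an exon without coding sequence there. No late-numbered gene had any of 50 listed heart muscle genes as its same-strand host. The listed genes include myosin, titin and calcium channel genes and hold Mir208a, Mir208b and Mir499. Each gene was given a single host, so a listed gene around a smaller protein-coding host would be missed. On the opposite strand Mir6419 lay in Nebl, with 0 counts in both libraries.

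Mir1306 had the most counts of the genes that overlap coding sequence, and its host is Dgcr8, the partner of Drosha. It lies at chromosome 16, 18284239 to 18284317, minus strand, and had 642 and 337 counts, or 153 and 117 CPM, lower in replicate 2 (log2 ratio -0.32, interval -0.51 to -0.12). Mir3057, over coding sequence of Apba3 (chromosome 10, 81271597 to 81271687, plus strand), had 116 and 118 counts, or 27.7 and 41.0 CPM, higher in replicate 2. Mir5113, over a UTR of Tnrc6b, whose protein works with Argonaute in silencing, had 33 and 20 counts and did not pass the test. Mir1249 overlaps an exon without coding sequence of 5031439G07Rik (chromosome 15, 84951526 to 84951623, minus strand). It had 293 and 326 counts, or 70.0 and 113 CPM, higher in replicate 2 (log2 ratio 0.77, interval 0.53 to 1.00).

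Of the 20 most abundant late-numbered genes, 5 were exonic, 9 intronic and 6 intergenic. The intergenic ones were Mir5099 (42.8 and 56.3 CPM), Mir6236 (44.2 and 39.6 CPM), Mir1983 (29.6 and 27.5 CPM), Mir8112 (22.5 and 29.2 CPM), Mir8114 (15.0 and 21.5 CPM) and Mir7688 (17.4 and 15.6 CPM). Mir5099 and Mir8114 were higher in replicate 2 by the test, Mir8114 only just (adjusted p = 0.0439 in the exact binomial test, and 0.0447 to 0.194 over 5 alternatives), and the other 4 did not pass. The intronic ones not yet given were Mir1198 in Gripap1 (30.6 and 57.3 CPM), Mir3058 in Nudt4 (48.0 and 28.5 CPM), Mir1968 in Grtp1 (15.5 and 18.4 CPM), Mir6538 in Rnf144a (12.9 and 16.3 CPM) and Mir3107, described next. Mir1198 was higher and Mir3058 lower in replicate 2.

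**Figure D3:**
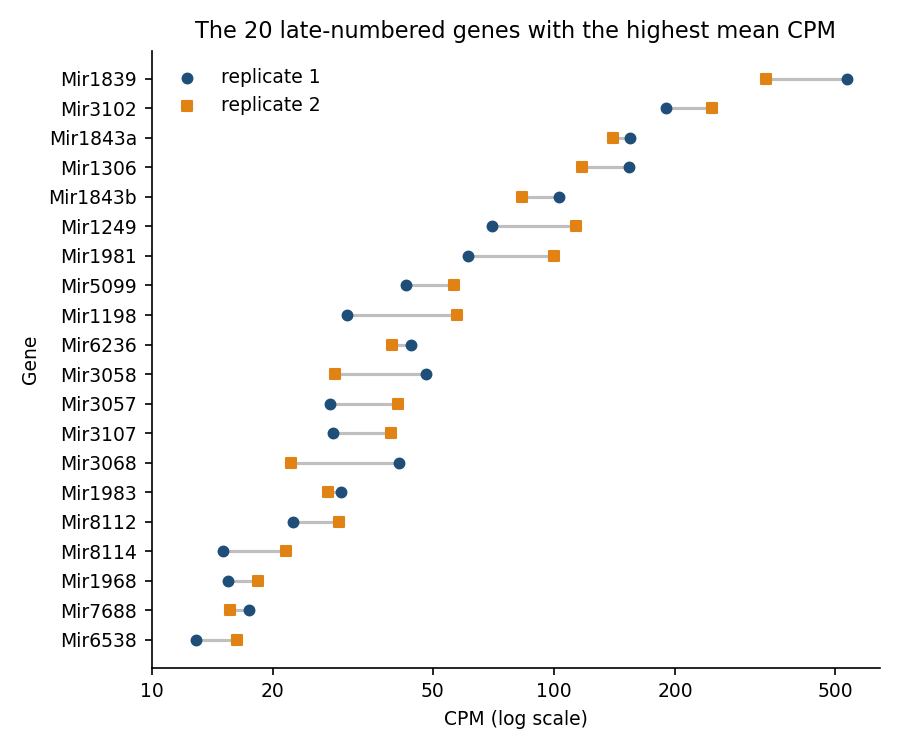
Level of the 20 late-numbered Mir genes with the highest mean, in CPM on a log axis, in replicate 1 (circles) and replicate 2 (squares), with a line joining the libraries. Mir1839 stands highest at 535 and 335 CPM, and Mir6538 closes the list at 12.9 and 16.3 CPM.

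Late-numbered genes that lie opposite a microRNA gene numbered below 1000 had fewer counts than that partner in both libraries in every case. In all, 10 late-numbered genes lay opposite another microRNA gene, and 2 were detected. Mir3107, opposite Mir486 in an intron of the noncoding gene Gm15816 (chromosome 8, 23142573 to 23142662, minus strand), had 118 and 113 counts, against 4155 and 3158 for Mir486, or 2.76% and 3.45% of the pair. Mir3074-1, opposite Mir24-1, had 47 and 26 counts against 427 and 410, or 9.92% and 5.96% of the pair. The transcripts of Mir3107 and Mir486 share a run of 22 bases that reads alike on both strands, so reads within it fit both genes. Reads that fitted several places went to no gene, so such reads may be missing from both counts. The shares of this pair then describe only the reads that remain. The longest such run of Mir3074-1 and Mir24-1 is 10 bases. Mir3065 had 5 and 2 counts against 945 and 621 for Mir338, and Mir3544 had 0 in both libraries against 280 and 132 for Mir337. Mir3107 was higher in replicate 2 (log2 ratio 0.55, interval 0.17 to 0.93), as was Mir486 (0.22), and Mir3074-1 did not pass the test.

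Precursor sequence shared with another microRNA gene touched few of the late-numbered genes. A run of 18 bases was shared with another microRNA gene elsewhere by 60 of 648, and 7 of the 60 were detected (11.7%), against 82 of the other 588 (13.9%). Among genes numbered below 1000, 211 of 514 shared such a run. The 7 detected genes were Mir1843a, Mir1843b, Mir8112, Mir3074-1, Mir8111, Mir3098 and Mir1934. Their counts, like those of all genes here, hold unique reads only. Mir1193, in the imprinted Dlk1-Dio3 region, was detected with 12 and 7 counts, while its neighbour Mir1197 had 0 in both libraries.

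The precursors were short and rich in G and C. Their median length was 74.5 bases and their median GC content 53.7%, against 84 bases and 46.2% for genes numbered below 1000. Detected late-numbered genes had a median GC content of 56.5% and undetected ones of 53.0%. The genes numbered below 1000 also had a higher median when detected (49.0% against 42.9%).

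The libraries were compared over the 51 late-numbered genes with enough counts for a test. Of these, 18 differed by more than counting error, with 11 higher in replicate 2 and 7 lower (exact binomial test, adjusted p under 0.05 over all genes tested). Over all 309 genes tested the background was 63.4%, with 35.3% higher and 28.2% lower. The late-numbered share was 35.3%. Their tested genes had a median of 10.5 CPM, against 91.1 CPM for the other tested genes, and the part of level in the lower share was not tested. Below 10 CPM, 3 of 23 late-numbered genes and 5 of 25 other genes passed. From 10 to below 100 CPM it was 12 of 24 and 57 of 105, and from 100 CPM on 3 of 4 and 116 of 128. The median log2 ratio was 0.08 for the tested late-numbered genes and 0.01 for all tested genes.

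Among late-numbered genes with a mean of 10 CPM or more, those that rose most in replicate 2 relative to replicate 1 were Mir1943 in an intron of Tmem184b (6.69 and 14.2 CPM, log2 ratio 1.16, interval 0.43 to 1.91), Mir1198 (log2 ratio 0.98, 0.64 to 1.32) and Mir5122 (7.40 and 13.2 CPM, log2 ratio 0.91, 0.18 to 1.64). Those that fell most were Mir5121 (log2 ratio -1.31, interval -2.04 to -0.63), Mir3068 (-0.81, -1.25 to -0.39) and Mir3058 (-0.68, -1.07 to -0.30). Over all tested late-numbered genes the range of those that passed ran from -1.39 for Mir1960 (40 and 10 counts), in an intron of Hadhb, to 1.53 for Mir5130, which lies over a UTR of Kctd12, and 5 of the 18 differed more than 2-fold. Of the 7 tested genes that overlap another small RNA gene, 3 passed, all of them lower, and of the other 44, 11 were higher and 4 lower. The difference between these groups was not tested.

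**Figure D4:**
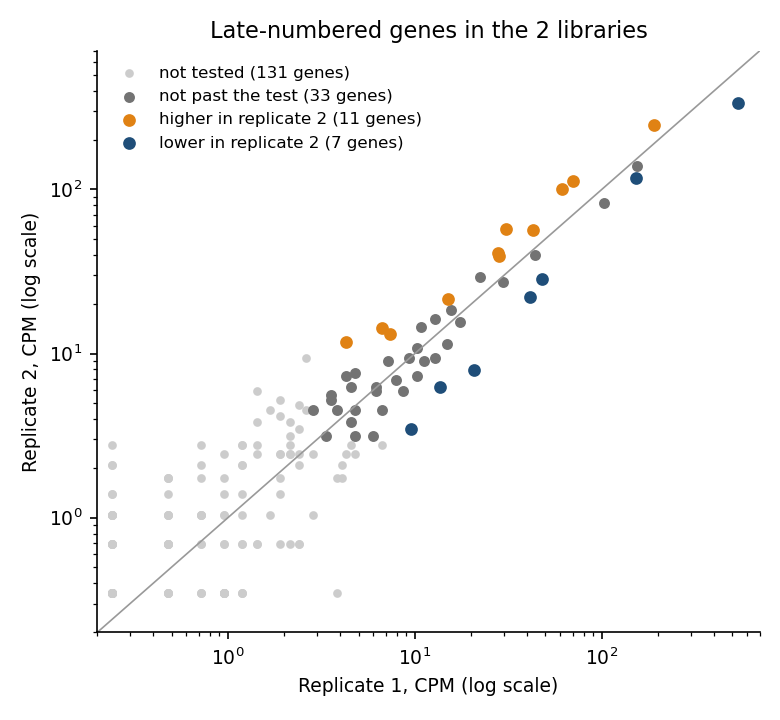
CPM of the late-numbered Mir genes with at least 1 count in each library, replicate 1 against replicate 2 on log axes, with the line of equal CPM. Of the genes shown, 11 were higher and 7 lower in replicate 2 by the exact binomial test and 33 did not pass. The rest had too few counts to be tested.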

How the data were processed

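Each library has 1 deposited table of raw read counts for microRNA genes, made by the authors on build mm10 with annotation M21, per the deposited readme. For the aligner, name and settings were not given in the sources used here. Counts on the strand of the gene were used. The 4 rows that name no gene (unmapped, at several loci, outside genes, ambiguous) held 19.0%, 42.4%, 6.94% and 0% of 13233055 reads in replicate 1 and 17.5%, 43.2%, 7.11% and 0% of 8930289 in replicate 2, and stayed out of CPM and tests. Assigned counts were 4186560 and 2877511. The libraries were not duplicates (chi-square 830.1 per degree of freedom over genes). Effects of CAST alleles on mapping were not tested.

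Symbols, hosts and precursor sequences came from GENCODE M21. A host is a same-strand gene that contains the microRNA gene, a protein-coding one first and then the smallest. Small RNA genes were not counted as hosts, and a gene without a host is called intergenic. Genes kept by filterByExpr (edgeR 4.0.16, minimum count 10, R 4.3.3) were tested between libraries by a two-sided exact binomial test on TMM-scaled totals with Benjamini-Hochberg adjustment over all genes, threshold 0.05. Intervals are exact 95% intervals and, like the floor of 3 counts, cover counting error only. DESeq2 1.42.0 gave alternative size factors. Other steps ran in Python 3.11.15 with pandas 2.3.3 and scipy 1.17.1. The test was checked on simulated counts that hold counting error only. The check therefore does not cover other spread between these libraries. The named genes are the 20 highest by mean CPM, the 3 largest changes in each direction at 10 CPM or more, detected genes that overlap another small RNA or opposite-strand microRNA gene, and those nearest the number limit. The genes and lists were chosen with earlier results of these data known. Other genes named are examples picked with their values already known. The host of 1 named gene is not reported here.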

Additional observations from a re-analysis of the deposited data

Results flagged for a closer look

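Reads on the strand opposite to a late-numbered gene, which entered no comparison, passed 3 counts at 2 genes with no annotated opposite-strand microRNA gene, both in replicate 1. Mir5620 had 5 such reads there and 1 in replicate 2, beside 10 and 10 on its own strand. Mir1948 had 6 and 3, beside 10 and 7. Over all 638 late-numbered genes without such a partner, opposite-strand reads were 29 against 8527 in replicate 1 (0.339%) and 8 against 5586 in replicate 2 (0.143%).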

How the results depend on the processing

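The number of detected late-numbered genes, 89, was 113 at 0.5 CPM, 36 at 5 CPM, 52 at 10 counts in both libraries, 315 at 1 count in either, 50 with CPM over all reads and 99 with reads regardless of strand. With 1 library left out it ranged from 107 to 130. Under each of these settings the detected share stayed below that of genes numbered below 1000 (5.56% and 43.0% at 5 CPM, 48.6% and 63.6% at 1 count in either). The share of counts was 0.268% regardless of strand and 0.0649% of all reads, and ranged from 0.199% to 0.208% with 1 library left out. Restricting overlaps to the same strand left 11 of 21 genes, since the other 10 are opposite-strand pairs by definition. The 18 genes that differed between libraries ranged from 17 to 23 over the alternatives, and host, intron-end and shared-sequence counts stayed within 1.5-fold. Without a filter on low counts the log2 ratio of Mir1949 changed from 0.08 to -0.035 (adjusted p = 1.0, exact binomial test), and Mir5099, Mir3107, Mir5122 and Mir8114 no longer passed (adjusted p = 0.0888, 0.0755, 0.0875 and 0.194). Mir8114 was also lost with plain totals and regardless of strand. Mir1843b passed under every alternative except DESeq2 size factors (0.0520). Regardless of strand Mir3107 and Mir3074-1 fell to 0, since reads at opposite-strand pairs were then ambiguous. Levels under about 1 CPM rest on few counts. By counting error alone, 0 counts allow a level of up to 0.717 CPM in replicate 1 and 1.04 CPM in replicate 2. No paired analysis was possible because the design holds 1 group.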

Other observations

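Some detected late-numbered genes shared a seed with a detected gene numbered below 1000. Of the 81 detected genes with a RefSeq mature strand, 7 carried a seed that is also found in a detected gene numbered below 1000. The same share was not counted for the undetected late-numbered genes, so it cannot be read as a trait of the detected ones. Mir1943, at 10.5 ± 5.35 CPM (SD, n = 2), shares AGGGAGG with Mir149 (miR-1943-5p: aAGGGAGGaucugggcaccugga). Mir3102 shares UGAGUGG with Mir702, Mir1193 shares GGUAGAC with Mir379 and AGGUCAC with Mir370, and Mir6958, at 1.95 CPM, shares UGGGAGA with Mir30c-1 and Mir30c-2. Which mature strand of the partner gene carries the shared seed is not given here, and it need not be the more abundant strand. The strand that gave the reads was measured neither for these genes nor for their partners.

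Some late-numbered precursors repeat elsewhere in the transcriptome. A run of 18 bases was found in transcripts of at least 10 other genes for 48 of the 648 genes, a limit set after the data were seen. Of the 48, 6 were detected (12.5%) and 36 had no count in either library, and of the other 600, 83 were detected (13.8%). The detected ones were Mir8111 (1156 other genes, 8.10 CPM on average), Mir1934 (274, 4.40 CPM), Mir8112 (148, 25.8 CPM), Mir6236 (45, 41.9 CPM), Mir6240 (18, 11.1 CPM) and Mir8101 (15, 2.64 CPM). Mir1187, with the most other genes at 2567, had 0 counts in both libraries. Reads that fitted several places were counted for no gene.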
